A study of Mus musculus with 12 samples.

Results

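The genes described here are 9 genes for structural proteins of central myelin, Mbp, Mobp, Mal, Pllp, Cldn11, Mag, Mog, Cnp and Gsn, measured in mouse cerebellum. They were chosen by name, with earlier results of these data known. The shares of all genes given beside their counts are therefore a description and not a test. Every one of the 9 has at least 1 probe set on the array that the platform annotation assigns to that gene alone. They are 9 of 12393 genes with such a probe set, and all 9 were among the 7835 genes bright enough to be tested. The study set BALB/c mice lacking Npc1 (Npc1-/-, called null) against Npc1+/+ (wild-type) mice, killed at postnatal day 21 (P21) or 49 (P49). A protocol text that accompanies every animal gives P21 as the day of death, but each animal's own time point is P21 or P49, and the time points were used. Npc1 encodes a protein of late endosomes and lysosomes that exports cholesterol, and its loss causes Niemann-Pick type C disease. There were 3 arrays in each of 4 groups, null P21, wild-type P21, null P49 and wild-type P49, and each array held RNA from the cerebellum of 1 animal. The labels name no other allele and no treatment, and the animals of all groups had the same housing. The null allele is not limited to a cell type, and the arrays compare whole cerebella and not oligodendrocytes.

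Myelin is made by oligodendrocytes, which wrap layers of their membrane around axons and are rich in cholesterol. In compact myelin the cytoplasmic faces are held together by basic proteins, the layers are sealed by tight junctions, and adhesion proteins sit on the innermost and outermost membranes. In the rodent cerebellum the white matter tracts myelinate during the first postnatal weeks, and transcripts of myelin proteins are abundant in the period when membrane is being laid down.

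Levels are given as log2(intensity + 16) after quantile normalization, and they can be compared between arrays for 1 gene but not between genes. Before normalization the array medians on the log2 scale lay between 10.65 and 10.92. Npc1 had 8.25 to 10.53 on the 6 null arrays, against 11.06 to 11.75 on the 6 wild-type arrays. The Npc1 differences, at -1.95 ± 0.37 at P21 (limma adjusted p = 0.101) and -1.43 ± 0.37 at P49 (limma adjusted p = 0.059), did not pass the threshold of 0.05. All animals but null P49 replicate 1 were labelled female. Xist, expressed from the inactive X chromosome, was low on 3 P21 arrays so labelled, at 13.01 and 13.36 on null replicates 2 and 3 and at 9.29 on wild-type replicate 2, against 15.61 to 15.86 on the other arrays. Eif2s3y, from the Y chromosome, was at 9.25 and 12.67 on those null arrays and at 12.72 on that wild-type array, against 4.35 to 8.91 on the other arrays. Wild-type P21 replicate 2 had the lowest Xist and the highest Eif2s3y of the 12 arrays, which contradicts its female label. On null P21 replicates 2 and 3 Xist lay between wild-type P21 replicate 2 and the other arrays. Eif2s3y on null P21 replicate 2, at 9.25, was close to the highest of the other arrays, 8.91. These 2 arrays thus had mixed values, which do not settle the sex of the animals, and the reason was not tested. Null P49 replicate 1, labelled male, had Xist at 15.63 and Eif2s3y at 7.93, within the range of the other P49 arrays, all labelled female, which contradicts its label. The main results that rest on P21 are therefore also given without the 3 P21 arrays. That leaves 1 null P21 array, whose spread is then assumed to be like that of the other groups.

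The sequences at the gene starts of Cldn11 and Mal, which had the most negative genotype differences at P21, of Mog, which had the second most negative age difference of the 9 in wild type, and of Mobp, whose window is dense in 1 motif, are shown for orientation. Each runs from 250 bases before to 50 bases after the first base of the gene in RefSeq (GRCm38.p6), 5′ to 3′ on the gene's own strand. They lie at chr3:31149670-31149969 on the plus strand (Cldn11), chr2:127656646-127656945 on the minus strand (Mal), chr17:37023349-37023648 on the minus strand (Mog) and chr9:120149492-120149791 on the plus strand (Mobp). Capitals mark matches on either strand to ACAAAG, the core bound by SOX factors, to GGGCGG, bound by SP factors, and to CCAAT.
Cldn11: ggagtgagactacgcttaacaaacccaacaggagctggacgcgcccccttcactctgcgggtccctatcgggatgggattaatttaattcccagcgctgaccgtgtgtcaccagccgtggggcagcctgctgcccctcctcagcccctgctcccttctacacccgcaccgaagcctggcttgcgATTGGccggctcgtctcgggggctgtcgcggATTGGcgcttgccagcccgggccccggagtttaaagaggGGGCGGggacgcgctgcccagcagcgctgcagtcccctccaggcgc
Mal: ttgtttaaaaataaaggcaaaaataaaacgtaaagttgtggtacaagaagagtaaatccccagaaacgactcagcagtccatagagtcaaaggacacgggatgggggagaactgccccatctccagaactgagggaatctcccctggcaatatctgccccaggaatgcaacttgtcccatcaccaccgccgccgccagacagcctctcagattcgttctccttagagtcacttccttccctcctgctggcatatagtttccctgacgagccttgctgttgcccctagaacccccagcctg
Mog: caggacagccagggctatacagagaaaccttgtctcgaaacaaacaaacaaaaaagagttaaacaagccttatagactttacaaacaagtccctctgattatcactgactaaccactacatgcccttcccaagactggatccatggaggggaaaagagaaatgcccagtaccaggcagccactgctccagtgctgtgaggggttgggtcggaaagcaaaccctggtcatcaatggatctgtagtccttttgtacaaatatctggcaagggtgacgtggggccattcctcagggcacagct
Mobp: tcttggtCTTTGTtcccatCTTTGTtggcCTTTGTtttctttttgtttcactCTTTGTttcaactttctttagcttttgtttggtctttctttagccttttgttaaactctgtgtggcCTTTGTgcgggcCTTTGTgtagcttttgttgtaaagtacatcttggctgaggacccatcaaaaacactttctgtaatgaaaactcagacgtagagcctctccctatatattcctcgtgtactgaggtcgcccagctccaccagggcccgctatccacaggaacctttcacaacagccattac
The Mobp window holds 6 copies of ACAAAG, all on the minus strand and so printed as CTTTGT. At least 1 copy is held by 18.7% of the 32851 windows in the table, at least 2 copies by 2.37%, and at least 6 by 1 window, that of Mobp. The Cldn11 window holds 1 GGGCGG and 2 CCAAT, and the Mal and Mog windows hold no match to any of the 3 motifs.

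Of the 9 genes, 8 have an entry in that table, with 12 windows between them. Mbp is named only. ACAAAG was found in 4 of the 12 windows, those of Mobp and Cnp and 2 overlapping windows of Mag. GGGCGG was in 6 windows, against 35.7% of all windows, and CCAAT in 5, against 37.4%. Matches to the 3 motifs shared no base. These matches describe the letters and were not tested for binding.

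At P21 all 9 genes had a negative difference between null and wild-type cerebellum, and none passed the test over all genes. The differences ran from -1.08 on the log2 scale for Mal to -0.07 for Mbp, with a median of -0.53, against -0.005 over all genes tested, of which 50.7% were below 0. Only 0.0638% of genes were called in this comparison in either direction, 5 of 7835. Without adjustment for the number of genes, 6 of the 9 had p under 0.05 with a negative sign, as did 4.98% of all genes. In 5 of the 9, Cnp, Mal, Cldn11, Gsn and Pllp, every null P21 array lay below every wild-type P21 array, as in 5.6% of all genes. In these bulk samples fewer oligodendrocytes and less of a transcript per oligodendrocyte cannot be told apart.

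**Figure D1:**
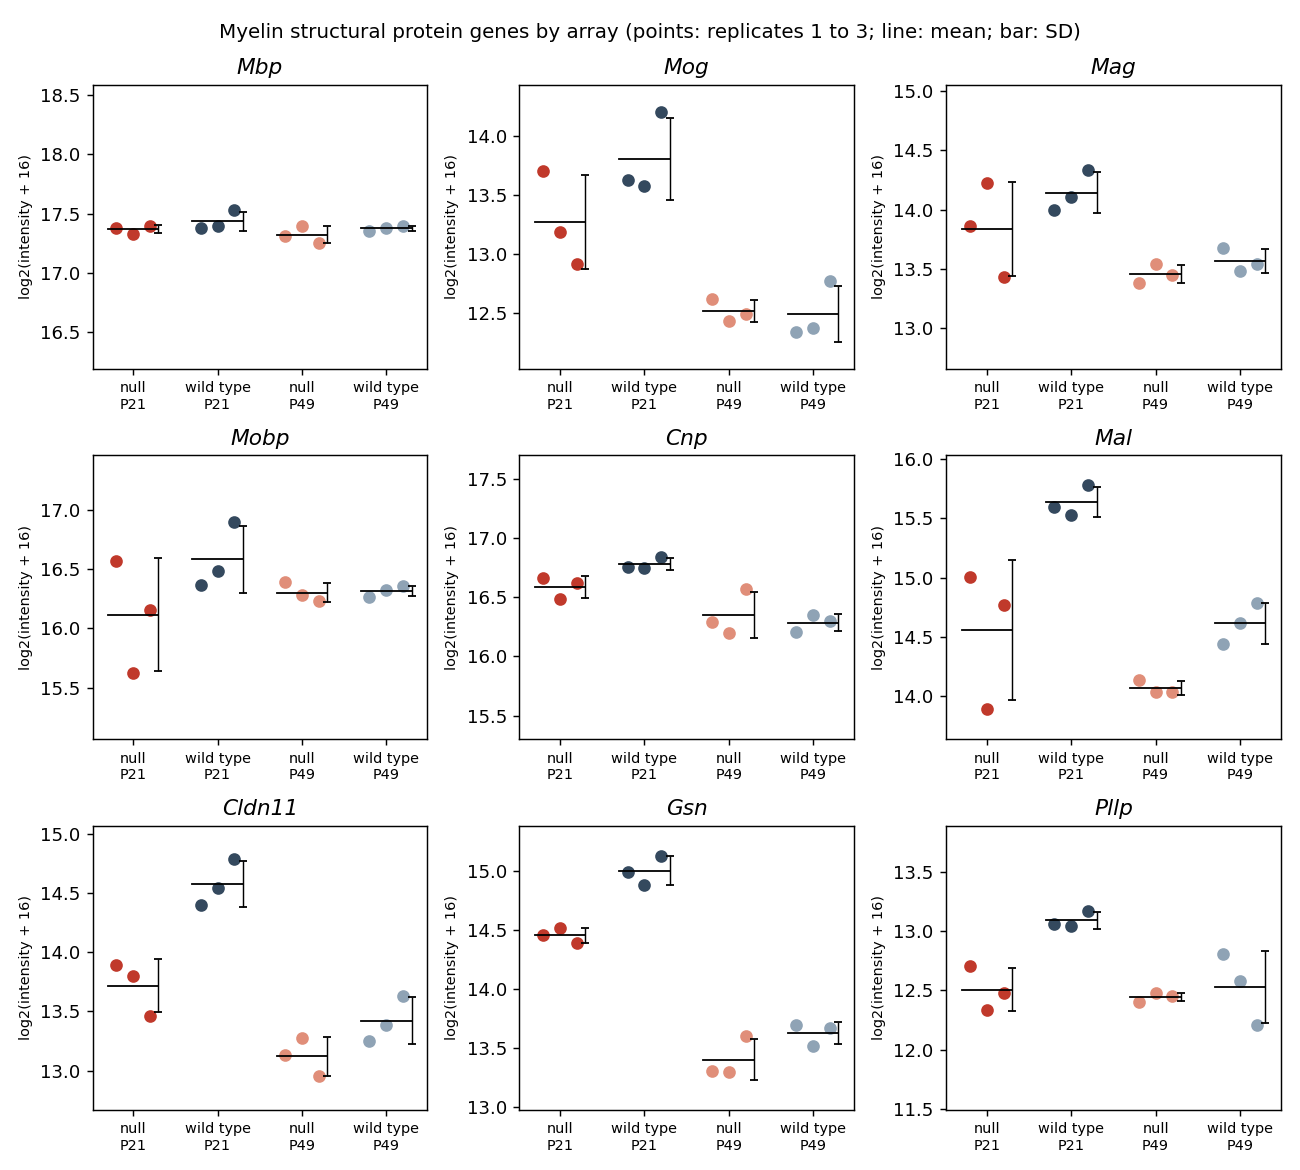
Level of each of the 9 myelin genes on each array, as log2(intensity + 16), for null P21, wild-type P21, null P49 and wild-type P49 (points are replicates 1 to 3, lines are means and bars are SD, n = 3 each, and every panel spans the same height). Wild-type P21 replicate 3 is the highest array in all 9 panels, and the null P21 points of Cldn11, Mal, Gsn, Pllp and Cnp all lie below the wild-type P21 points.

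The smallest difference was that of Mbp, the basic protein that binds the cytoplasmic faces of myelin membrane to each other. It had 17.38, 17.33 and 17.40 on the null P21 arrays, against 17.38, 17.40 and 17.53 on the wild-type P21 arrays. The P21 groups overlap, and the difference was -0.07 ± 0.07 (limma SE, adjusted p = 0.707). At P49 it had 17.31, 17.40 and 17.25 on the null arrays, against 17.36, 17.38 and 17.40 on the wild-type arrays, a difference of -0.06 ± 0.07 (limma adjusted p = 0.85). Its probe set ranked between 2nd and 11th brightest on each array, where quantile normalization leaves little room for a value to move, and the same value of 17.40 recurs on 4 arrays. With the values as deposited the P21 difference of Mbp was 0.14 (limma adjusted p = 0.561, and from 0.539 to 0.996 over 23 alternatives), so its sign is not settled.

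Mobp, a small basic protein of compact myelin made by oligodendrocytes, was spread widely in null P21 cerebellum. It had 16.57, 15.62 and 16.16 on the null P21 arrays, against 16.37, 16.48 and 16.90 on the wild-type P21 arrays. Null replicate 1 lay inside the wild-type range and null replicate 2 was the lowest of all 12 arrays, so that the difference of -0.47 ± 0.19 did not pass (limma adjusted p = 0.47). At P49 the groups all but coincided, with 16.39, 16.28 and 16.23 on the null arrays, against 16.27, 16.33 and 16.36 on the wild-type arrays, a difference of -0.02 ± 0.19 (limma adjusted p = 0.989).

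Mal and Pllp are proteolipids of the MARVEL family, and Mal takes part in carrying raft-like membrane to the sheath. Mal had 15.01, 13.89 and 14.77 on the null P21 arrays, against 15.60, 15.53 and 15.78 on the wild-type P21 arrays. All null arrays were below all wild-type arrays, with null replicate 2 far below the other null arrays, and the difference of -1.08 ± 0.21, 2.12-fold, was the 13th most negative of all genes but did not pass (limma adjusted p = 0.108). At P49 Mal had 14.14, 14.04 and 14.03 on the null arrays, against 14.44, 14.61 and 14.79 on the wild-type arrays. It was the 1 gene of the 9 whose P49 groups did not overlap, and its difference was -0.55 ± 0.21 (limma adjusted p = 0.29). The P21 difference of Mal passed without null P21 replicate 1 (-1.31, limma adjusted p = 0.0112) or 2 (-0.74, 0.0152), and over 23 alternatives its adjusted p ran from 0.0112 to 0.816. The P49 difference passed when fitted on the 6 P49 arrays alone (limma adjusted p = 0.00417) and without null P21 replicate 2 (0.00479), with adjusted p from 0.004 to 0.646 over 23 alternatives.

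Pllp (plasmolipin) had 12.70, 12.34 and 12.48 on the null P21 arrays, against 13.06, 13.04 and 13.17 on the wild-type P21 arrays, with no overlap. Its difference was -0.59 ± 0.15 (limma adjusted p = 0.264). At P49 the order was mixed, with 12.40, 12.48 and 12.45 on the null arrays, inside the range set by 12.81, 12.58 and 12.21 on the wild-type arrays, and the difference was -0.09 ± 0.15 (limma adjusted p = 0.904).

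Cldn11 is the claudin that forms the tight junctions between layers of central myelin. It had 13.89, 13.80 and 13.46 on the null P21 arrays, against 14.40, 14.55 and 14.79 on the wild-type P21 arrays. The gap between the highest null and the lowest wild-type array was wide, and the difference of -0.86 ± 0.15, 1.81-fold, had the 6th smallest p of all genes and missed the threshold narrowly (limma adjusted p = 0.0524). With the values as deposited it passed (limma adjusted p = 0.0469), and it also passed without null P21 replicate 1 (-0.94, 0.0227) or 2 (-0.90, 0.0424), with adjusted p from 0.0227 to 0.378 over all 23 alternatives. At P49 Cldn11 had 13.13, 13.28 and 12.95 on the null arrays, against 13.25, 13.39 and 13.63 on the wild-type arrays. These groups overlap by 1 array, and the difference was -0.30 ± 0.15 (limma adjusted p = 0.468).

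The adhesion proteins of the sheath are Mag, on the membrane next to the axon, and Mog, on the outer surface. Mag had 13.86, 14.22 and 13.43 on the null P21 arrays, against 14.00, 14.10 and 14.33 on the wild-type P21 arrays, and the groups overlapped (-0.31 ± 0.16, limma adjusted p = 0.516). At P49 Mag had 13.38, 13.54 and 13.45 on the null arrays, against 13.68, 13.48 and 13.54 on the wild-type arrays, again with overlap (-0.11 ± 0.16, limma adjusted p = 0.89). Mog had 13.70, 13.19 and 12.92 on the null P21 arrays, against 13.63, 13.58 and 14.20 on the wild-type P21 arrays. Null replicate 1 exceeded both lower wild-type arrays, and the difference was -0.53 ± 0.20 (limma adjusted p = 0.44). At P49 Mog had 12.62, 12.44 and 12.50 on the null arrays, against 12.34, 12.38 and 12.77 on the wild-type arrays, a difference of 0.02 ± 0.20 (limma adjusted p = 0.986).

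Cnp encodes a cyclic nucleotide phosphodiesterase of the uncompacted cytoplasmic parts of the sheath. It had 16.66, 16.49 and 16.62 on the null P21 arrays, against 16.75, 16.75 and 16.84 on the wild-type P21 arrays, which did not overlap but lay close together (-0.19 ± 0.09, limma adjusted p = 0.508). Scaling each array to a common 75th percentile in place of quantile normalization took this P21 difference of Cnp to 0.01. At P49 Cnp had 16.29, 16.20 and 16.57 on the null arrays, against 16.21, 16.35 and 16.30 on the wild-type arrays (0.07 ± 0.09, limma adjusted p = 0.882).

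Gsn, gelsolin, severs and caps actin filaments and is present in oligodendrocytes as well as in other cells. It had 14.46, 14.52 and 14.39 on the null P21 arrays, against 15.00, 14.88 and 15.13 on the wild-type P21 arrays. Both groups were tight and apart, and the difference of -0.55 ± 0.11, 1.46-fold, did not pass (limma adjusted p = 0.109). At P49 Gsn had 13.31, 13.30 and 13.60 on the null arrays, against 13.70, 13.52 and 13.67 on the wild-type arrays, which overlap by 1 array (-0.23 ± 0.11, limma adjusted p = 0.453).

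1 array stood out among the wild-type animals at P21. After quantile normalization replicate 3 was the highest of all 12 arrays for all 9 genes. The deposited intensities put it highest for all but Mbp and Cnp. Mbp had 158865.5 there, against 195875 on null P21 replicate 2, and Cnp 107320.9, against 111684.4 on wild-type P21 replicate 2. The same wild-type P21 replicate 3 had Slc17a6, a glutamate transporter gene of brainstem and deep nuclear neurons, at 13.11. Wild-type P21 replicates 1 and 2 had 11.18 and 11.58. Null P49 replicate 2 also had a high Slc17a6, at 13.42, and the other arrays had 10.68 to 11.96. Unlike wild-type P21 replicate 3, null P49 replicate 2 was the lowest of the 12 arrays for Cnp and Gsn. The 19 brainstem neuron genes with a probe set, 17 of them below the filter, had summed intensities of 9135 to 10995 on null P21 arrays, 8907 to 18651 on wild-type P21 arrays, 9824 to 20180 on null P49 arrays and 11506 to 11753 on wild-type P49 arrays. The other tested gene among the 19, Uncx, moved the opposite way, at 11.56 on wild-type P21 replicate 3, the lowest of the 12 arrays, against 11.68 to 12.52 on the others. The 5 Hox genes among the 19 lay between 4.79 and 9.80 on all arrays, below the filter at 9.93. Whether the amount of brainstem tissue has a part in the myelin values was not tested. Without wild-type P21 replicate 3 all 9 differences at P21 were still negative, none was called, and their median was -0.33. On that fit Mal was at -1.01 (limma adjusted p = 0.405), Cldn11 at -0.76 (0.254), Gsn at -0.48 (0.447) and Pllp at -0.54 (0.536), and over 23 alternatives the adjusted p of Gsn ran from 0.0692 to 0.571 and that of Pllp from 0.0692 to 0.816. Without the 3 arrays of low Xist 8 of the 9 were negative, none was called, and the median was -0.31, with Cldn11 at -0.70, Mal at -0.68 and Gsn at -0.59.

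**Figure D2:**
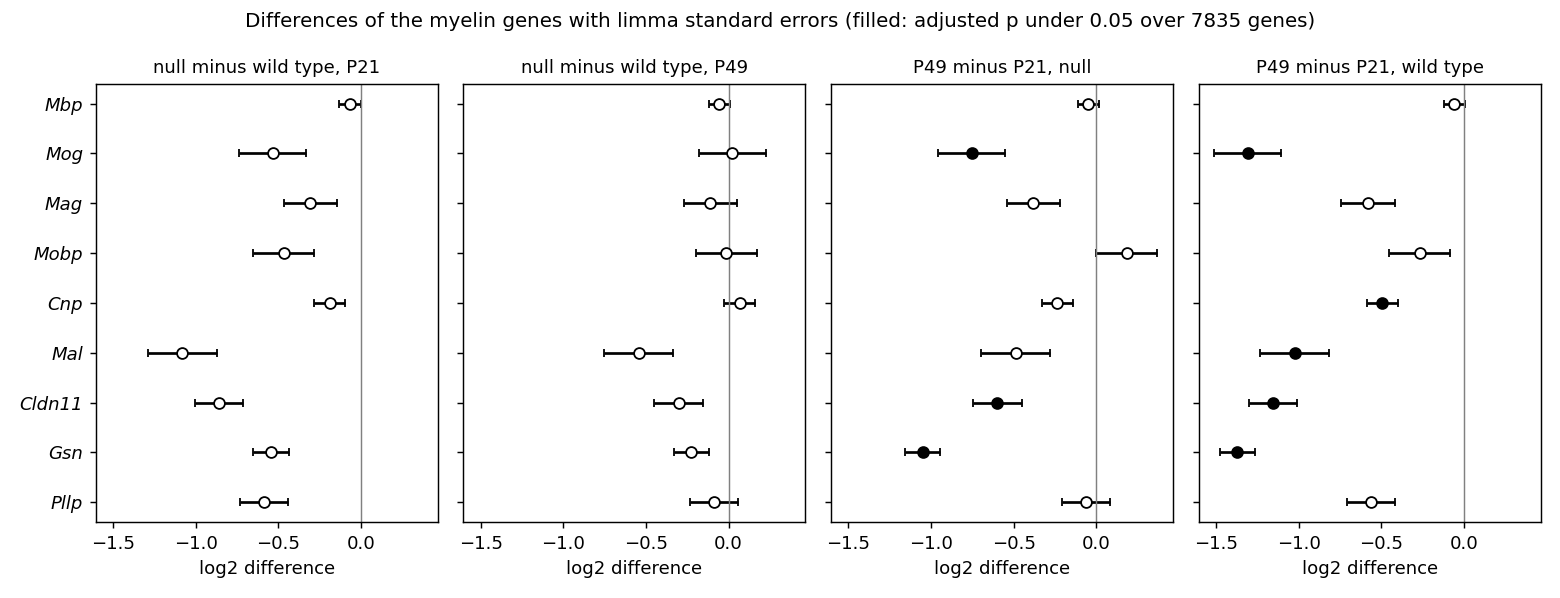
Log2 differences of the 9 genes with limma standard errors (n = 3 arrays per group), for null minus wild type at P21 and at P49 and for P49 minus P21 in null and in wild type. Filled points have an adjusted p under 0.05 over 7835 genes, and there are 3 in null and 5 in wild type with age and none between genotypes.

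At P49 the differences between null and wild-type cerebellum were small for most of these genes. None of the 9 was called by limma, where 2.68% of all genes were, and 7 of 9 were negative, against 54.1% of all genes. Mal alone had an unadjusted p under 0.05, with a negative sign, as did 5.19% of all genes. The median was -0.09, from -0.55 for Mal to 0.07 for Cnp. Only Mal had groups without overlap, as did 12% of all genes in the downward direction. On the same arrays 13 of 14 tested genes of microglia and macrophages were called higher in null P49 cerebellum, with a median difference of 3.04. Their summed intensity, over 18 genes, was 197434 to 249698 on null P49 arrays, against 34881 to 36286 on wild-type P49 arrays. At P21 3 of the 14 were called higher, with sums of 60430 to 68212 on null arrays, against 34377 to 42488 on wild-type arrays, and 1 was called without the 3 arrays of low Xist. The part of microglial RNA in the myelin differences was not tested.

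Whether the genotype difference itself differed between the ages was tested by the interaction, the P49 difference minus the P21 difference. All 9 values were positive, where 49.7% of all genes were, and none was called, against 0.549% of all genes. Cldn11, at 0.56 ± 0.21 (limma adjusted p = 0.458), and Pllp, at 0.50 ± 0.21 (limma adjusted p = 0.532), had an unadjusted p under 0.05, as did 3.88% of all genes with a positive sign. Mog had 0.56 ± 0.29, Mal 0.54 ± 0.30 and Mobp 0.45 ± 0.26, and the median over the 9 was 0.45. A genotype difference that changed with age was therefore not shown for any of the 9 genes. With the values as deposited Mbp had the opposite sign, at -0.19, and the median was 0.30 without wild-type P21 replicate 3 and 0.20 without the 3 arrays of low Xist.

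With age 5 of the 9 myelin genes fell in wild-type cerebellum and none rose. All 9 had negative differences between wild-type P49 and wild-type P21 cerebellum, where 50.6% of all genes did, and the 5 called lower were Gsn, Mog, Cldn11, Mal and Cnp, where 0.536% of all genes were. In 8 of 9, all but Mbp, every P49 array lay below every P21 array, as in 11.1% of all genes in that direction. The median was -0.58. The age comparisons use the same arrays as the genotype comparisons, so a low or high P21 group enters both.

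Gsn fell the most in wild type, by 1.37 ± 0.11, 2.59-fold (limma adjusted p = 3.77e-05), and had the smallest p of all 7835 genes. It averaged 13.63 ± 0.10 at P49 and 15.00 ± 0.12 at P21 (SD, n = 3 each). Mog averaged 12.50 ± 0.24 at P49 and 13.80 ± 0.35 at P21, a difference of -1.31 ± 0.20, 2.48-fold (limma adjusted p = 0.0101). Both were among the 15 most negative differences of all genes tested.

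Cldn11 averaged 13.42 ± 0.20 at P49 and 14.58 ± 0.20 at P21 in wild type, a difference of -1.15 ± 0.15, 2.22-fold (limma adjusted p = 0.00241). Mal averaged 14.61 ± 0.17 at P49 and 15.64 ± 0.13 at P21, 2.03-fold lower (limma adjusted p = 0.0383). Cnp averaged 16.29 ± 0.08 at P49 and 16.78 ± 0.05 at P21, 1.41-fold lower (limma adjusted p = 0.0269). Of the 4 not called, Mag had -0.58 ± 0.16 (limma adjusted p = 0.169), Pllp -0.56 ± 0.15 (0.143), Mobp -0.27 ± 0.19 (0.714) and Mbp -0.06 ± 0.07 (0.86).

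The wild-type calls differed in how firm they were. Gsn and Cldn11 were called under all 23 alternatives and Mog under 22 of 23, the exception being the fit without wild-type P49 replicate 2 (limma adjusted p = 0.0656, the highest of a range that began at 0.0018). Cnp was called under 13 and Mal under 9. The 5 calls became 3, Cldn11, Gsn and Mog, without any 1 of the 3 wild-type P21 arrays and without wild-type P49 replicate 1 or 3, and 2, Cldn11 and Gsn, without wild-type P49 replicate 2. Without the 3 P21 arrays of low Xist they became 6, with Mag added. Mbp was at 0.06 with the values as deposited.

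In null cerebellum 3 of the 9, Gsn, Mog and Cldn11, were called lower at P49 than at P21, against 3.43% of all genes. Of the 9, 8 had a negative difference, where 51.4% of all genes did, and the median was -0.38. In 3 of the 9 every null P49 array lay below every null P21 array, as in 12% of all genes. Gsn averaged 13.41 ± 0.17 at P49 and 14.46 ± 0.06 at P21, a difference of -1.05 ± 0.11, 2.07-fold (limma adjusted p = 7.38e-05). Cldn11 averaged 13.12 ± 0.16 at P49 and 13.72 ± 0.23 at P21, 1.51-fold lower (limma adjusted p = 0.0293). Mog averaged 12.52 ± 0.09 at P49 and 13.27 ± 0.40 at P21, 1.69-fold lower (limma adjusted p = 0.0426).

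The other 6 genes did not pass in null cerebellum. Mal had -0.49 ± 0.21 (limma adjusted p = 0.204), Mag -0.38 ± 0.16 (0.198) and Cnp -0.24 ± 0.09 (0.166). Mobp was the 1 gene with a positive value, at 0.19 ± 0.19 (0.604). Pllp, at -0.06 ± 0.15 (0.854), and Mbp, at -0.05 ± 0.07 (0.723), stayed near 0. Gsn was called under all 23 alternatives, Cldn11 under 18 and Mog under 11, with limma adjusted p from 0.0116 to 0.125 for Cldn11 and from 0.00734 to 0.153 for Mog. Without null P21 replicate 1, or without any 1 of the 3 null P49 arrays, the 3 calls became 1, Gsn, and without the 3 arrays of low Xist they became 4, with Mal added and Mobp at -0.26. Genes of microglia rose over the same interval, 13 of 14 called with a median of 1.95, where 2.77% of all genes were called higher. Their part in the null age differences was not tested. In wild type none of these 14 was called with age, 0 had an unadjusted p under 0.05, and their median was -0.07.

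Different probe sets of 1 gene gave a similar picture with a few exceptions. The 9 genes have 26 probe sets, of which 25 passed the filter, and in a fit over all 13576 probe sets 22 of the 25 had a negative difference between null and wild-type cerebellum at P21. At the gene level 50.7% of all genes did. The 25, among them 8 of Mbp and 5 of Gsn, read the same 9 genes on the same arrays and are not independent. None of the 25 was called, against 0.081% of all probe sets, but 3 were without null P21 replicate 1 and 1 each without null P21 replicate 2 or 3. Without the 3 arrays of low Xist 20 of the 25 were negative and none was called. The second probe set of Mal had -1.34 ± 0.26 (limma adjusted p = 0.108), and the 3 probe sets of Mobp had -0.47, -0.61 and -0.67. For Gsn 4 bright probe sets ran from -0.78 to -0.55, whereas a dim one, with a mean of 10.02, had 0.08.

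The 8 probe sets of Mbp differed in brightness and in the sign of their P21 differences. The 6 with means from 16.64 to 17.38 had negative P21 differences, down to -0.288 ± 0.201, and as small as -0.010 ± 0.080. The 2 with means of 12.16 and 11.09 had 0.187 ± 0.197 and 0.243 ± 0.225. At P49 the signs did not divide by brightness. Among the 6, positive values of 0.039 and 0.241 stood beside negative ones, and the 2 dim ones had 0.016 and -0.080. The files do not say which transcripts of the gene each probe set reads. With age in wild type 23 of 25 were negative, where 50.6% of all genes were at the gene level. Of the 25, 7 were called lower, against 0.575% of all probe sets called. The called ones were 4 of Gsn, from -1.80 to -1.37, and 1 each of Mog, Cldn11 and Cnp. Mal missed the threshold there (limma adjusted p = 0.0514). In null 6 were called lower, against 4.57% of all probe sets called, 4 of Gsn and 1 each of Cldn11 and Cnp, and Mog missed it (limma adjusted p = 0.0549). Without the 3 arrays of low Xist 13 were called lower with age in wild type and 9 in null, against 1.3% and 7.1% of all probe sets, and with 1 array left out 5 to 12 were in wild type and 4 to 8 in null.

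**Figure D3:**
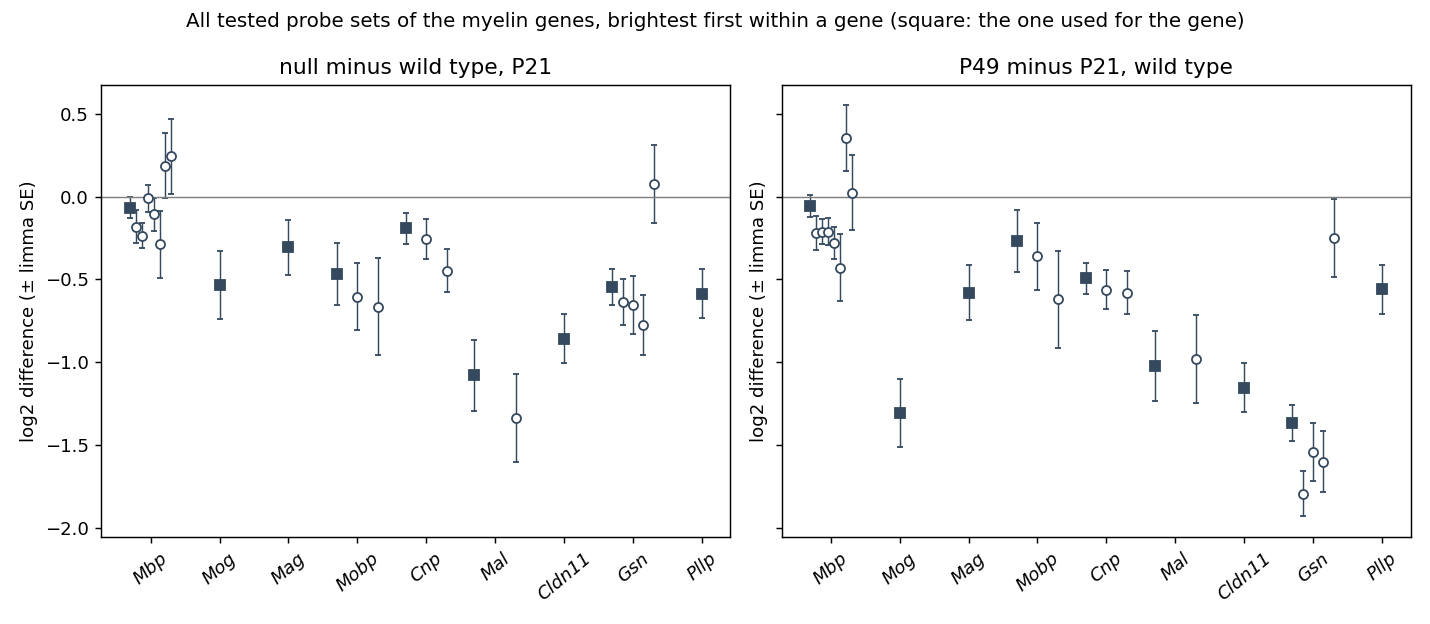
Log2 difference of each of the 25 tested probe sets of the 9 genes with its limma standard error, for null minus wild type at P21 (left) and P49 minus P21 in wild type (right), brightest first within a gene, with squares for the probe set used for the gene. At P21 22 of 25 lie below 0, and with age 23 of 25 do, with the 4 bright Gsn probe sets lowest.

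Other genes of myelin and mature oligodendrocytes also had mostly negative differences between the genotypes and with age in wild type, but not with age in null. Of 45 listed genes 31 were tested, and at P21 26 of the 31 were negative with a median of -0.28, where 50.7% of all genes were negative. None was called, and 9 had an unadjusted p under 0.05 with a negative sign, as did 4.98% of all genes. The smallest p-values were those of Ppp1r14a, at -0.65 ± 0.19, Tspan2, at -0.44 ± 0.14, Anln, at -1.01 ± 0.32, and Stmn4, at -0.39 ± 0.14, none of which passed. At P49 the median was -0.14, with Cd9, a tetraspanin of myelin and of other cells, called higher at 0.96 ± 0.12 (limma adjusted p = 0.000435), and the protease gene Adamts4 called lower at -0.66 ± 0.15 (limma adjusted p = 0.0277). Of all genes 2.68% were called at P49 in either direction. With age in wild type 1 of the 31, the tetraspanin Tspan2, was called lower, at -0.72 ± 0.14 (limma adjusted p = 0.0265), and the median was -0.10. Of all genes 0.536% were called lower there. With age in null 17 of the 31 were negative, where 51.4% of all genes were, and the median was -0.03. Of the 31, 2 were called lower and 3 higher, where 3.43% and 2.77% of all genes were. The higher ones were Plekhb1, at 0.81 ± 0.11, Cd9, at 0.67 ± 0.12, and Evi2a, at 0.76 ± 0.14. Both P49 calls held without the 3 arrays of low Xist, and at P21 the median was then -0.23 with none called, whereas 1 was called lower at P21 without null P21 replicate 1. Tspan2 was not called without any 1 of the 6 wild-type arrays, nor Adamts4 at P49 without any 1 of the 3 wild-type P49 arrays or null P49 replicate 2 or 3. With the average of probe sets Adamts4 was at -0.70 at P49 and not called (limma adjusted p = 0.244).

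Enzymes that build myelin lipid and serve oligodendrocyte metabolism form a further list. Of 26 listed enzymes 23 were tested, and at P21 19 were negative, with a median of -0.24, where 50.7% of all genes were negative. None was called, and 11 had an unadjusted p under 0.05 with a negative sign, as did 4.98% of all genes. The smallest p-values belonged to Car2, carbonic anhydrase, at -0.45 ± 0.11, Aspa, aspartoacylase, at -0.70 ± 0.17, Adssl1, at -0.61 ± 0.16, and Hmgcs1, of the cholesterol pathway, at -0.44 ± 0.12. At P49 1 of the 23 was called, where 2.68% of all genes were in either direction. It was Sgms1, a sphingomyelin synthase, higher at 0.73 ± 0.16 (limma adjusted p = 0.0219). With age in wild type 4 of 23 were called lower, where 0.536% of all genes were. These were Hmgcs1, at -0.96 ± 0.12 (limma adjusted p = 0.00241), Ugt8a, which makes galactosylceramide, at -1.43 ± 0.20 (limma adjusted p = 0.0048), Sirt2, at -0.54 ± 0.10 (limma adjusted p = 0.0205), and Elovl1, a fatty acid elongase, at -0.70 ± 0.14 (limma adjusted p = 0.038). With age in null 4 were called lower and 3 higher, where 3.43% and 2.77% of all genes were. Among them were Ugt8a at -1.24 ± 0.20 and Hmgcs1 at -0.64 ± 0.12, lower, and Qdpr at 0.70 ± 0.10 and Car2 at 0.63 ± 0.11, higher. Without the 3 arrays of low Xist the P21 median was -0.19 with none called (1 was without null P21 replicate 1), and in wild type Ugt8a was at -1.47 and Hmgcs1 at -1.01, both called. Sirt2 and Elovl1 were not called without any 1 of the 6 wild-type arrays, nor Sgms1 without wild-type P49 replicate 2 or any 1 of the 3 null P49 arrays. With the average of probe sets Sgms1 was at 0.30 at P49 and not called (limma adjusted p = 0.414).

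Regulators of the oligodendrocyte lineage and markers of its precursors form another list. Of 26 listed genes 14 were tested, and at P21 12 were negative with a median of -0.25, where 50.7% of all genes were negative. None was called, and 2 had an unadjusted p under 0.05 with a negative sign, as did 4.98% of all genes. At P49 1 of the 14, the inhibitor of differentiation gene Id2, was called, lower at -0.66 ± 0.10 (limma adjusted p = 0.00138). In this comparison 2.68% of all genes were called in either direction, and the median of the 14 was 0.03. With the average of probe sets Id2 was at -0.45 and not called (limma adjusted p = 0.0957). With age 1 of the 14 was called lower in each genotype. In wild type it was the transcription factor gene Olig1, at -0.61 ± 0.13 (limma adjusted p = 0.0432), where 0.536% of all genes were called lower. In null it was Id2, at -0.39 ± 0.10 (limma adjusted p = 0.0303), where 3.43% of all genes were. Olig1 was not called without any 1 of the 6 wild-type arrays, nor Id2 in null without null P21 replicate 3 or any 1 of the 3 null P49 arrays. Without the 3 arrays of low Xist the P21 median was -0.21 with none called, and Id2 in null was not called (-0.34, limma adjusted p = 0.0616). Schwann cells make peripheral myelin, and of 6 listed genes of these cells the 2 with a probe set, Egr2 and Ncmap, were below the filter, with summed intensities of 106 to 1068 on all arrays.

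**Figure D4:**
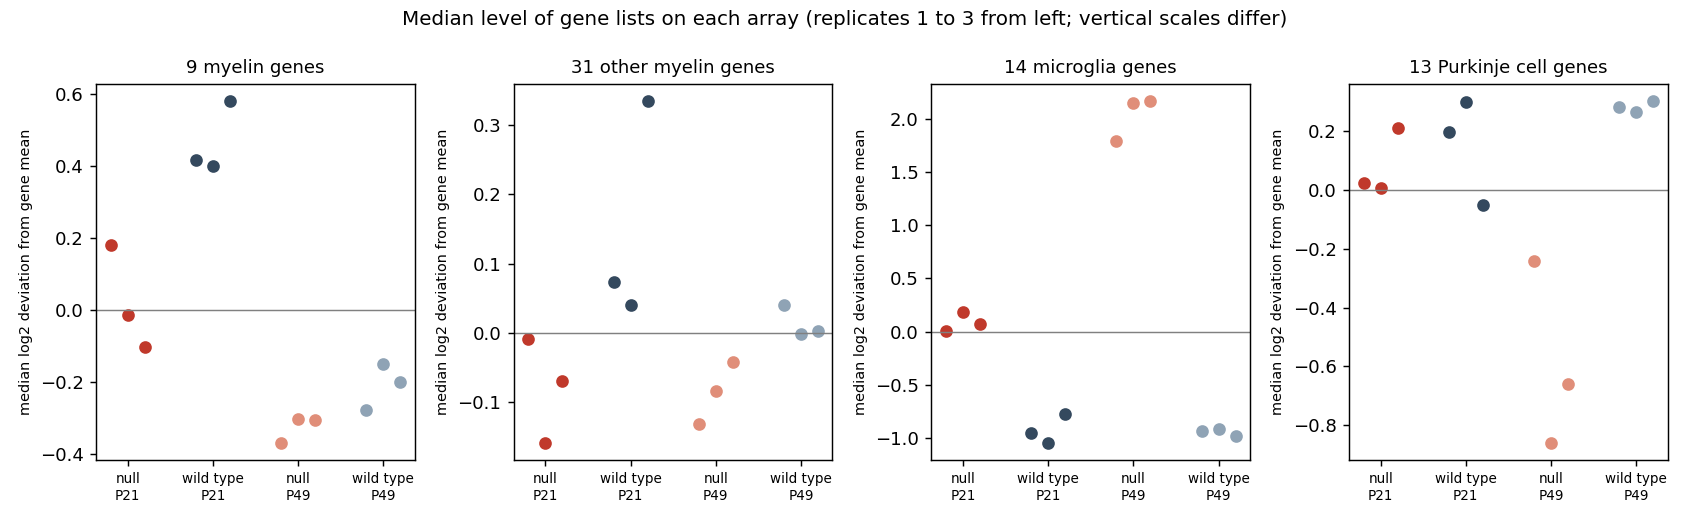
Median log2 deviation from each gene's mean over the 12 arrays, for the 9 myelin genes, 31 other myelin genes, 14 microglia genes and 13 Purkinje cell genes on each array (replicates 1 to 3 from left within a group; vertical scales differ). The 9 myelin genes run from -0.10 to 0.18 on null P21 arrays, 0.40 to 0.58 on wild-type P21 arrays, -0.37 to -0.30 on null P49 arrays and -0.28 to -0.15 on wild-type P49 arrays.

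Array by array, the 9 genes taken as a median deviation from their own means lay at 0.18, -0.02 and -0.10 on the null P21 arrays, against 0.42, 0.40 and 0.58 on the wild-type P21 arrays. At P49 they lay at -0.37, -0.30 and -0.30 on the null arrays, against -0.28, -0.15 and -0.20 on the wild-type arrays. On this median the null P21 arrays sat between the wild-type P21 arrays and both P49 groups. The group means of Mog, Mag, Cnp, Cldn11 and Gsn had the same order, but not those of the other genes. Mobp averaged 16.117 in null P21, below both null P49 (16.302) and wild-type P49 (16.317). Null P21 was also slightly below wild-type P49 for Mal (14.555 against 14.612), Pllp (12.507 against 12.532) and Mbp (17.368 against 17.377). Genes of Purkinje cells, the neurons lost in this disease, gave a median difference between genotypes of 0.00 at P21 and of -0.92 at P49. At P49 11 of 13 were called lower, where 2.68% of all genes were called in either direction.

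Over the 12 arrays the 36 pairs of the 9 genes had Pearson correlations from 0.15 to 0.92 with a median of 0.70, a description that includes the group differences the arrays share. Within groups, after the group means were taken out, the same pairs ran from -0.58 to 0.89 with a median of 0.26. Cldn11 lay closest to the mean of the 9 standardised levels, at 0.96, and Mobp farthest, at 0.61. Among the other genes tested, those with the highest correlation with that mean were Grb14 and Ugt8a, both at 0.956, Hmgcs1 at 0.949, Klhl2 at 0.946, Tmeff2 at 0.926, Acss2 at 0.909, Tspan2 at 0.908 and Praf2 at 0.902. These values also include the group differences. With the group means taken out, their correlations with the mean deviation of the 9 ran from 0.42 for Tspan2 to 0.88 for Ugt8a. Ugt8a, for example, had 15.66, 14.59 and 14.99 on the null P21 arrays, against 15.63, 15.71 and 16.07 on the wild-type P21 arrays. At P49 it had 13.97, 13.83 and 13.73 on the null arrays, against 14.39, 14.36 and 14.37 on the wild-type arrays. As for the structural genes after quantile normalization, wild-type P21 replicate 3 was its highest array.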

How the data were processed

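Total RNA of 12 cerebella was labelled with biotin and hybridised to Affymetrix arrays, per the labels. The authors deposited 1 linear intensity per probe set and array (22690, of which 64 are controls). How probes were summarised is not given in the sources used here. Every array had a mean of 5002 once 2% of its values were trimmed from either end.

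Intensities were quantile normalized and then transformed as log2(value + 16). The deposited intensities hold no detection call that was used here, so which dim genes exceed background is unknown. Probe sets were named through the platform's annotation, updated by Entrez identifier (20380 had 1 symbol, 691 several and 1555 none). A gene was represented by its brightest probe set with 1 symbol and tested when its mean reached the 40th percentile (intensity 961), 7835 of 12393 genes. The means of 4 groups were fitted with limma 3.58.1 in R 4.3.3 (eBayes with trend, all 12 arrays). Tests were two-sided, p-values were adjusted by Benjamini-Hochberg over all genes tested, and the threshold was 0.05. The ± of a difference is limma's standard error (n = 3 arrays per group), and fold changes on this scale understate those of dim genes. The number of arrays limits the precision. The fit was tested on simulated data.

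The members and lists were chosen with earlier results of these data known. All 9 members are named, with up to 4 genes of a list by smallest p and the 8 most alike genes. Normalization, pseudocount, filter, probe set rule, trend, replicate block and arrays left out were varied. Slc17a6 and Xist were singled out after their values were seen.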

Additional observations from a re-analysis of the deposited data

Results flagged for a closer look

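Among the genes of myelin and oligodendrocytes outside the 9 structural genes, Cd9 had a genotype difference that differed between the ages by limma's interaction test, the P49 difference minus the P21 difference being 1.14 ± 0.17 on the log2 scale (adjusted p = 0.00718). It was called under all 22 alternatives, from 0.99 to 1.24 with adjusted p from 0.002 to 0.0424, and was 1.08 without the 3 P21 arrays of low Xist (limma adjusted p = 0.00688). It had 14.51, 14.57 and 14.72 on the null P49 arrays, against 13.72, 13.53 and 13.68 on the wild-type P49 arrays. At P21 it had 14.01, 13.65 and 14.13 on the null arrays, against 14.06, 14.05 and 14.22 on the wild-type arrays, and the groups overlapped (-0.18 ± 0.12, limma adjusted p = 0.597). Genes of microglia and macrophages moved the same way between the ages, 8 of 14 being called higher by the interaction with a median of 1.95 (6 to 10 called over the alternatives). Of all genes 0.549% were called by the interaction in either direction. The part of microglial genes in the value of Cd9 was not tested.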

How the results depend on the processing

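Each difference of the 9 genes was recomputed under 23 alternatives (22 for the interaction). Over the 9 genes in 5 comparisons 940 single values kept their sign and their side of the threshold, 17 passed it in addition, 42 no longer passed and 27 reversed. The cause of these changes was not tested. At P21 0 genes were called, 1 (Cldn11) with the values as deposited, and 0 to 2 when 1 array at a time was left out. The P21 median ran from -0.68 to -0.33 with 1 array left out and was -0.31 without the 3 arrays of low Xist. At P49 0 were called, 1 (Mal) with only the arrays of the groups compared and 1 (Mal) without the 3 arrays, and 0 to 1 with 1 array left out. The interaction had 0 calls throughout, and its median was 0.27 with 75th percentile scaling and 0.20 without the 3 arrays. With age in null 3 were called, 1 with only the arrays of the groups compared, and 1 to 4 with 1 array left out. With age in wild type 5 were called, 3 each with the values as deposited, 75th percentile scaling, no filter or no trend, and 2 to 6 with 1 array left out.

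The reversed values were all small, and none passed. For Mbp the P21 difference was 0.14 with the values as deposited, 0.17 with 75th percentile scaling and 0.004 without the 3 arrays. At P49 it was 0.015 with the average of probe sets and 0.035 without the 3 arrays. Its interaction was -0.19 as deposited, -0.23 with 75th percentile scaling and -0.036 to 0.043 with 1 array left out, and its age difference in wild type was 0.064 as deposited and 0.068 with that scaling. For Cnp the P21 difference was 0.010 with 75th percentile scaling, and at P49 it was -0.087 with the average of probe sets and -0.042 to 0.144 with 1 array left out. For Gsn the P49 difference was 0.009 with the average of probe sets. With 1 array left out the P49 difference ran from -0.055 to 0.157 for Mog, from -0.25 to 0.052 for Pllp and from -0.06 to 0.019 for Mobp, and the interaction of Mag ran from -0.006 to 0.389. The age difference in null then ran from -0.146 to 0.036 for Pllp and from -0.061 to 0.416 for Mobp, which was at -0.26 without the 3 arrays.

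The replicate numbers of the labels were also fitted as a replicate block. Deviations of same-numbered arrays from their group means correlated at -0.17 to 0.19 over 18 pairs, with 6 of 18 over 0.1, so the numbers name arrays and do not pair them. With the replicate block 0 genes were called at P21, 0 at P49, 0 in the interaction, 2 with age in null, where Mog had an adjusted p of 0.0559 in limma (from 0.00734 to 0.153 over 23 alternatives), and 5 with age in wild type. The genes called in the oligodendrocyte lists were recomputed under the same alternatives, a choice made after seeing the data, and none reversed. At P49 Cd9 was called under all 23, Id2 under 22, Sgms1 under 18 and Adamts4 under 17. With age in wild type Hmgcs1 and Ugt8a were called under all 23, Tspan2 and Sirt2 under 16, Elovl1 under 11 and Olig1 under 10. With age in null Plekhb1, Evi2a, Qdpr and Ugt8a were called under all 23, Cd9, Car2 and Hmgcs1 under 22, Adamts4 under 20 and Id2 under 16. Microglial genes called higher numbered 1 to 4 at P21 and 7 to 16 at P49, and Purkinje cell genes called lower at P49 numbered 7 to 12. The probe sets were refitted only with arrays left out. Signals near the top of the intensity scale, as for Mbp, limit what these arrays can resolve.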
